A study of Mus musculus with 11 samples.

Results

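The proteasome subunit genes were the protein-coding genes whose mouse symbol was Psma, Psmb, Psmc, Psmd, Psme or Psmf followed by a number. The rule found 44 of the 25006 genes counted. Of these, 5 were treated as inducible, namely the immunoproteasome subunits Psmb8, Psmb9 and Psmb10 and the activator subunits Psme1 and Psme2, and they were compared with the other 39. Left ventricular tissue from 11 mice was sequenced from stranded mRNA, with a single library for each mouse. Infarcted tissue was collected 9 days after permanent ligation of the left descending coronary artery (MI), and an equivalent piece of ventricle came from naive mice. The groups were naive controls (n = 2, libraries M44 and M45), naive Vegfc-deficient mice (n = 3, M34, M149 and M150), MI controls (n = 3, M006, M38 and M40) and MI Vegfc-deficient mice (n = 3, M35, M900 and M913). Vegfc-deficient mice carried Vegfc fl/fl with LysMCre, in which Cre is driven from the lysozyme locus in myeloid cells including neutrophils. The genotype field gave controls as Vegfc fl/fl, so that the floxed allele would be common to all mice, whereas the extraction protocol named LysMCre mice without the floxed allele.

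The proteasome degrades proteins tagged with ubiquitin. Its 20S core is a barrel of alpha rings, which gate the entrance, and beta rings, which hold the catalytic sites. Psmb5, Psmb6 and Psmb7 encode the constitutive catalytic subunits. Under interferon, and in many immune cells without it, the subunits encoded by Psmb8, Psmb9 and Psmb10 take their respective places. The result is the immunoproteasome, which cuts proteins into peptides for MHC class I. The 19S cap, built of Psmc ATPases and Psmd non-ATPase subunits, recognizes, unfolds and feeds the substrate. Psme1 and Psme2 encode PA28, an interferon-induced cap that opens the core without ATP. In the heart, the proteasome is studied for the turnover of sarcomere proteins and for the removal of damaged proteins after ischemia.

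Promoter sequence is shown for the inducible and constitutive partners Psmb8 and Psmb5 and for Psmb9 and Psmb6, because the ratios within these pairs are compared below. The ratio of Psmb10 to Psmb7 is compared as well, but no sequence is shown for that pair. The promoter of Psmb10 held none of the letters searched, and that of Psmb7 was not matched. Each line gives 150 bases directly before the start site, 5′ to 3′ on the strand of the gene, from RefSeq on GRCm38.p6. For Psmb8 and Psmb9 these start sites (34198195 and 34187330) lie inside the gene bounds given below, which come from another annotation, and so do the stretches shown. Capitals mark the letters TTCNNNGAA (the GAS element, found in promoters that respond to interferon-γ) in Psmb8 and TGACNNNGC (the antioxidant element) in Psmb5 and Psmb6. In Psmb9 they mark ATTGG, the reverse complement of CCAAT.
Psmb8 (chr17:34198045-34198194, plus strand): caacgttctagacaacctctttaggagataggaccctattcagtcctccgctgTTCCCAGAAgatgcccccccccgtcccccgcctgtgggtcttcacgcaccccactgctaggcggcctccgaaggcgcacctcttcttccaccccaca
Psmb5 (chr14:54617996-54618145, minus strand): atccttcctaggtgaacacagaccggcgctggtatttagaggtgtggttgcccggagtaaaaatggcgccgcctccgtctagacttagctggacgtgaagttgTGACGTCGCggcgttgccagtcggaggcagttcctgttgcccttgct
Psmb9 (chr17:34187331-34187480, minus strand): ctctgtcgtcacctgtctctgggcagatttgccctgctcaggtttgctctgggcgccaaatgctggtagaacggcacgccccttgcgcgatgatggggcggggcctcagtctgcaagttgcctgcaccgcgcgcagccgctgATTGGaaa
Psmb6 (chr11:70525207-70525356, plus strand): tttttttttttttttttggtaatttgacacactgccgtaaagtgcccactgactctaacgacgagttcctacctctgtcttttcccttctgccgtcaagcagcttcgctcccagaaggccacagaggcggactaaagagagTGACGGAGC
Promoters of 37 of the 44 members were matched, from 250 bases before to 50 after the start, and both strands were searched. TTCNNNGAA was found in 2 members, Psmb8 and Psmd2, and in 9.55% of the genes in the table, counting a gene when any of its promoters held the letters. TGACNNNGC was found in 6 members (Psmb5, Psmb6, Psmc6, Psmd9, Psmd12 and Psme4) and in 13.99% of all genes. The core letters of the interferon-stimulated response element were present in 4 members, of which Psme1 was the only inducible one, and in 3.99% of all genes. CCAAT was found in 14 members and in 41.1% of all genes. The start sites of Psmb9 and Tap1, the peptide transporter gene on the opposite strand, were 226 bases apart, so that their promoter windows overlapped.

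Levels are given as CPM, the counts of a gene relative to its library's total after edgeR's TMM scaling. A difference was called where the p of the quasi-likelihood test in edgeR was under 0.05 after Benjamini-Hochberg correction across 14779 genes, written below as the edgeR adjusted p. Of the 44 members, 43 passed the filter on low counts. The exception was Psmb11, the thymus-specific beta subunit, which had counts only in M34 (0.163 CPM). Total counts ranged from 10824989 to 26782728, and 3 counts corresponded to 0.101 to 0.363 CPM. Xist levels ran from 0.624 to 11.8 CPM in naive hearts and from 188 to 403 CPM after MI, so the effects of MI and of sex cannot be told apart in any MI comparison. Vegfc itself lay between 21.9 and 45.5 CPM, with overlapping genotypes. The Cre-bearing locus, Lyz2, was at 72.5 and 245 CPM in M150 and M34 but at 4565 CPM in M149, the remaining library labelled naive Vegfc-deficient, against 2121 and 2282 CPM in naive controls. After MI it was at 12.4, 203 and 1392 CPM in M913, M900 and M35 and at 4538 to 5380 CPM in MI controls. M38 stands apart among the MI libraries, and results that moved without M149 or M38 are also given without them.

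MI hearts had lower levels of most proteasome genes. In control mice 28 of the 43 members tested were lower after MI and 0 were higher (background: 24.1% of all genes lower, 26.3% higher). In Vegfc-deficient mice 34 were lower and 0 were higher (background: 27.7% lower, 30% higher). At an unadjusted p under 0.05 the counts were 32 and 35 lower and 0 higher (background: 57.3% and 62.8% of all genes in either direction), and DESeq2 called 32 and 35 lower and 0 higher (background: 26.5% and 30% lower, 25.8% and 29% higher). The median log2 fold change of the members was -0.62 in control mice and -0.86 in Vegfc-deficient mice, against 0.13 and 0.10 over all genes tested. Without M38, 34 members were lower in control mice (background: 3616 of 14715 genes). Without M149, 34 were lower in Vegfc-deficient mice (background: 3993 of 14791 genes). Leaving out M45 or M44 leaves 1 naive control, so counts from those fits are not given. The members' median in control mice was then -0.58 or -0.65, against 0.13 or 0.14 over all genes tested.

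The summed level of all 44 members was 8229 and 8640 CPM in naive controls, 7787 to 9841 CPM in the naive Vegfc-deficient group, 4605 to 6183 CPM in MI controls and 4485 to 4723 CPM in the MI Vegfc-deficient group. Every MI library lay below every naive library. As an unscaled share, the members took 0.676% to 0.751% of all counts in naive libraries and 0.524% to 0.683% in MI libraries, and the highest MI value, that of M38, exceeded the lowest naive value. The cell makeup changed at the same time. A list of 11 cardiomyocyte markers, of which 10 were lower in control mice and 9 in Vegfc-deficient mice, summed to 68002 to 92024 CPM in naive libraries and 2412 to 22856 CPM in MI libraries. All 11 were detected in every library. A list of 5 fibroblast markers summed to 3678 to 5052 CPM in naive and 18058 to 28329 CPM in MI libraries, and 7 macrophage markers summed to 1425 to 2181 and 1934 to 4581 CPM. The part of these cells in the fall was not tested, and in bulk tissue fewer cells of a type and less RNA per cell cannot be told apart.

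**Figure D1:**
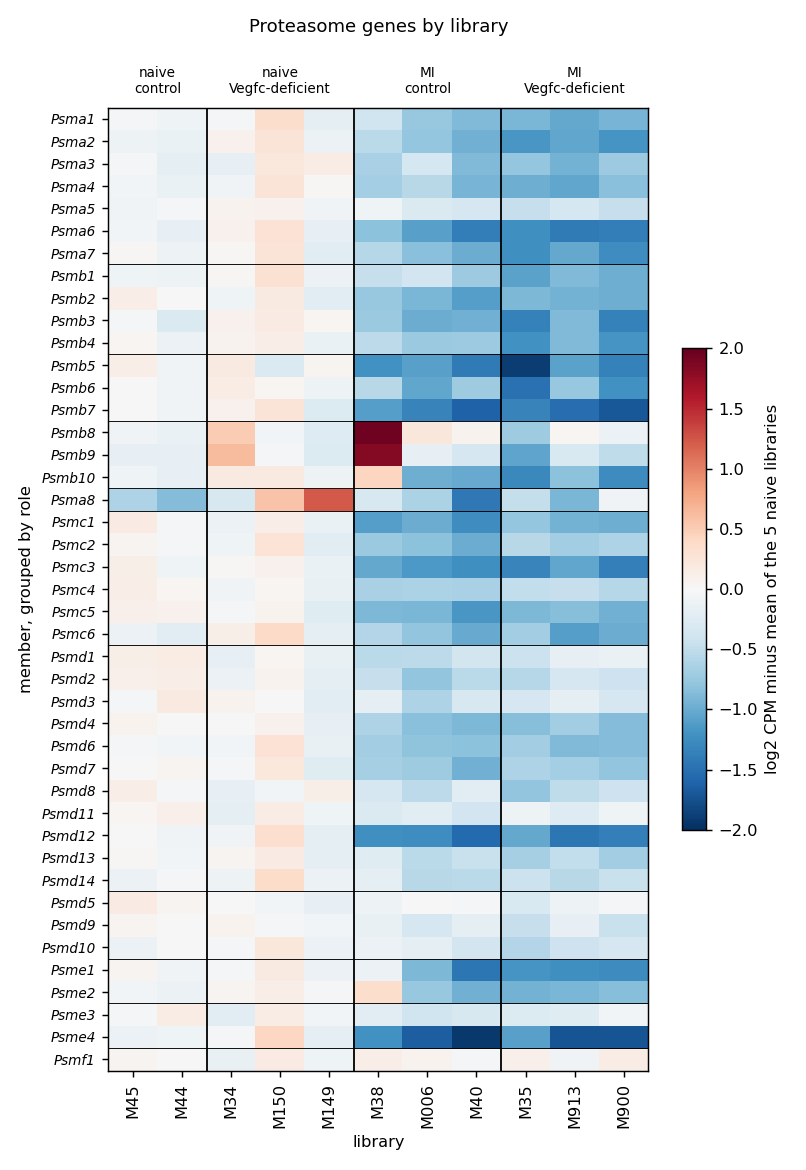
Level of the 43 members tested (rows, grouped by role) in each of 11 libraries (columns, grouped by genotype and MI), as log2 CPM minus the mean of the 5 naive libraries, with blue below and red above it. Most rows turn blue in the MI libraries, Psmf1 stays near white, and Psmb8, Psmb9, Psmb10 and Psme2 are red in M38 (Psmb8 at 358 CPM).

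All 14 constitutive genes of the 20S core had lower levels in every MI library than in every naive library of the same genotype. This held for 33% of all genes in control mice and 30.7% in Vegfc-deficient mice. Of these 14, 12 were called lower in control mice and 14 in Vegfc-deficient mice (background: 24.1% and 27.7% of all genes). Among the alpha subunits, Psma6 had the largest change in both genotypes. It was at 374 and 405 CPM in naive controls and 161 to 238 CPM in MI controls, a log2 fold change of -0.97 (SE 0.20, edgeR adjusted p = 0.0027). In Vegfc-deficient mice it was at 375 to 510 CPM before and 158 to 179 CPM after MI (log2 fold change -1.42, SE 0.18, edgeR adjusted p = 0.000157). Psma5 changed least of the 7 alpha subunits, from 40.8 and 42.2 to 33.8 to 40.4 CPM in controls (log2 fold change -0.19, SE 0.12, edgeR adjusted p = 0.207). The level of Psma5 is uncertain, because 54.5% of the 50-base stretches of its transcript also occur in transcripts of other genes.

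Of the 4 noncatalytic beta genes, 3 were lower in control mice and 4 in Vegfc-deficient mice (background: 24.1% and 27.7% of all genes). Psmb1 was the one not called in controls, at 467 and 473 CPM in naive and 303 to 384 CPM in MI hearts (log2 fold change -0.42, SE 0.18, edgeR adjusted p = 0.0752). Psmb3 fell from 77.5 to 84.6 CPM in the naive to 29.4 to 40.8 CPM in the MI Vegfc-deficient group (log2 fold change -1.28, SE 0.15, edgeR adjusted p = 0.000111), with 55.8% of its 50-base stretches shared with other genes.

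The 3 constitutive catalytic genes fell in both genotypes. Psmb5, which encodes the chymotrypsin-like subunit, was at 40.8 and 47.2 CPM in naive controls (M44, M45) and at 20.2, 18.5 and 16.1 CPM in MI controls (M006, M38, M40). In the Vegfc-deficient groups it was at 48.7, 35.2 and 44.4 CPM in M34, M150 and M149 and at 11.5, 16.8 and 20.5 CPM in M35, M900 and M913. The groups did not overlap, and M38 was not set apart. The log2 fold changes were -1.27 (SE 0.22, edgeR adjusted p = 0.00141) and -1.39 (SE 0.21, edgeR adjusted p = 0.000348). Its level is uncertain, since 57.1% of its 50-base stretches occur in other transcripts.

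Psmb7, the trypsin-like subunit, had the lowest adjusted p of any member in Vegfc-deficient mice. It was at 224 and 236 CPM in naive controls and 93.3, 110 and 77 CPM in MI controls, a log2 fold change of -1.30 (SE 0.20, edgeR adjusted p = 0.000681). In the Vegfc-deficient groups it was at 251, 282 and 197 CPM in naive and 94, 72.8 and 82.3 CPM in MI hearts (log2 fold change -1.55, SE 0.18, edgeR adjusted p = 0.000109). Psmb6, the caspase-like subunit, was at 331 and 344 CPM in naive controls and 169, 237 and 211 CPM in MI controls (log2 fold change -0.71, SE 0.22, edgeR adjusted p = 0.0222). This call was lost when M44, M45 or M006 was left out (edgeR adjusted p = 0.0817, 0.106 and 0.0643). In Vegfc-deficient mice Psmb6 went from 384, 356 and 321 CPM to 123, 150 and 206 CPM (log2 fold change -1.15, SE 0.21, edgeR adjusted p = 0.000992).

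The 6 ATPase genes at the base of the 19S cap were called lower in both genotypes (background: 24.1% of all genes in control and 27.7% in Vegfc-deficient mice). Psmc1 was at 245 and 282 CPM in naive controls and 126, 117 and 106 CPM in MI controls (log2 fold change -1.18, SE 0.15, edgeR adjusted p = 0.000348, the lowest of any member in control mice). Psmc5 was at 198 and 195 CPM in naive and 97.6, 98.3 and 82 CPM in MI controls (log2 fold change -1.08, SE 0.14, edgeR adjusted p = 0.00036). In Vegfc-deficient mice the 2 fell by 0.86 and 0.85 on the log2 scale, and the 6 ATPase genes ranged from -1.23 (Psmc3) to -0.45 (Psmc4).

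Of the 11 non-ATPase genes of the 19S cap, 8 were lower in each genotype (background: 24.1% of all genes in control and 27.7% in Vegfc-deficient mice). Psmd12, a scaffold subunit of the lid, was at 264 and 280 CPM in naive controls and 117, 118 and 94.5 CPM in MI controls, a log2 fold change of -1.30 (SE 0.20, edgeR adjusted p = 0.000688). In Vegfc-deficient mice it went from 265, 351 and 243 CPM to 137, 108 and 102 CPM (log2 fold change -1.31, SE 0.18, edgeR adjusted p = 0.000242). Not called in control mice were Psmd8, Psmd13 and Psmd14, the last encoding the deubiquitinase of the lid (log2 fold changes -0.41, -0.39 and -0.34). Not called in Vegfc-deficient mice were Psmd1, Psmd3 and Psmd11 (-0.15, -0.24 and -0.11). Psmd1, which encodes a scaffold subunit of the base, was at 199 and 205 CPM in naive and 126 to 142 CPM in MI controls, but at 165 to 188 CPM in naive and 137 to 168 CPM in MI Vegfc-deficient hearts, where the groups overlapped.

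The genes outside the core and cap differed more among themselves. The 3 assembly chaperones of the cap, Psmd5, Psmd9 and Psmd10, leave the finished particle. Their log2 fold changes were -0.24 to -0.15 in control mice. There edgeR called 0 (background: 50.4% of all genes), 0 had an unadjusted p under 0.05 (background: 57.3%) and DESeq2 called 0 (background: 26.5% lower, 25.8% higher). In Vegfc-deficient mice the log2 fold changes were -0.48 to -0.07, and Psmd9 and Psmd10 were called lower (background: 27.7%). Psme4, which encodes the activator PA200, had the largest fall of any member. It was at 433 and 423 CPM in naive controls and 146, 199 and 121 CPM in MI controls, a fold change of 0.363 (log2 -1.46, SE 0.27, edgeR adjusted p = 0.00188). In Vegfc-deficient mice it went from 453, 610 and 400 CPM to 216, 139 and 138 CPM, a fold change of 0.337 (log2 -1.57, SE 0.25, edgeR adjusted p = 0.000566).

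Psme3, the nuclear relative of PA28, fell less in control mice, from 74.2 and 83.4 to between 57.1 and 64.1 CPM (log2 fold change -0.38, SE 0.14, edgeR adjusted p = 0.0381). In Vegfc-deficient mice the groups overlapped and Psme3 was not called (log2 fold change -0.15, SE 0.12, edgeR adjusted p = 0.311). The call in control mice was lost under upper-quartile scaling (edgeR adjusted p = 0.0955), without the filter on low counts (0.0682) and when M44, M45, M006 or M40 was left out (0.0786 to 0.234). Psmf1, a protein inhibitor of the core, had similar levels in all groups: 30.1 and 31.2 CPM in naive controls, 26.9, 33.5 and 28.1 CPM in the naive Vegfc-deficient group, 31.4, 32.7 and 29.2 CPM in MI controls and 32.1, 33 and 28.3 CPM in the MI Vegfc-deficient group. Its log2 fold changes after MI were 0.02 (SE 0.13) and 0.08 (SE 0.12), the former turning negative under RLE scaling and in DESeq2. Psma8, the alpha subunit of the testis proteasome, was at 1.39 to 8.82 CPM, and its log2 fold changes were 0.02 (SE 0.49) and -1.07 (SE 0.43, edgeR adjusted p = 0.0516). The latter became a call under RLE scaling (edgeR adjusted p = 0.0428), with a mean CPM of at least 1 (0.0497) and in DESeq2 (DESeq2 adjusted p = 0.0232). Leaving out M38, M40 or M34 also made it a call (edgeR adjusted p = 0.0448, 0.0398 and 0.0172). With 1 library left out, it ranged from -1.39 to -0.63.

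**Figure D2:**
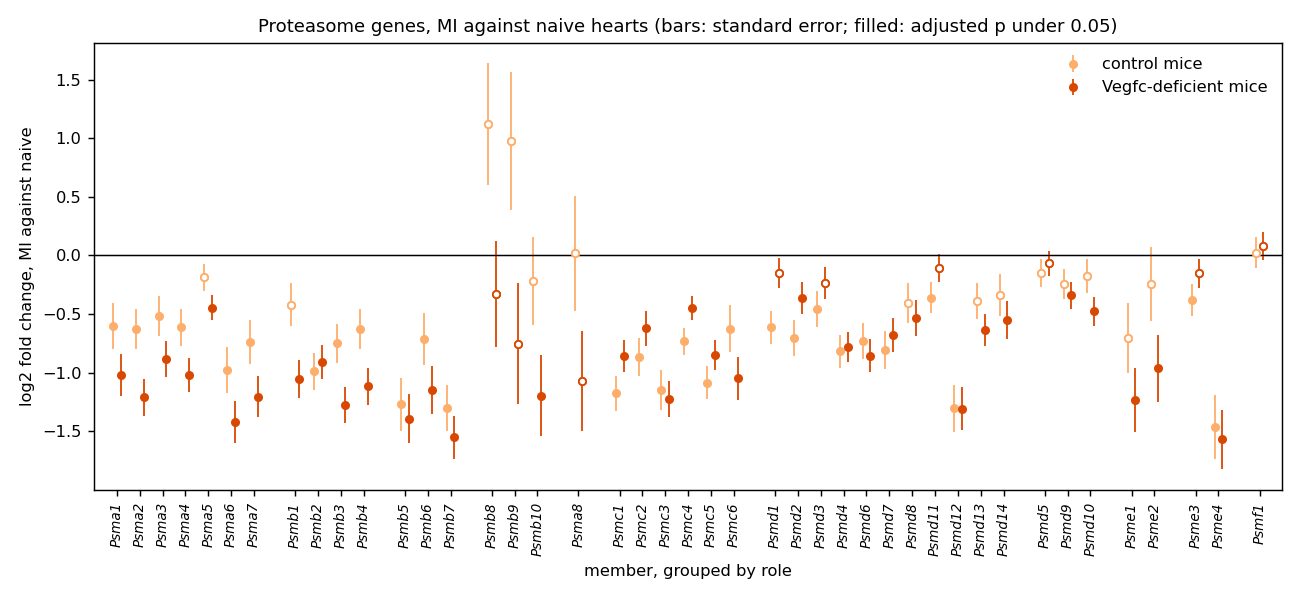
Log2 fold change of each member tested (x axis, grouped by role) in MI against naive hearts, in control mice (light) and Vegfc-deficient mice (dark), with bars of 1 standard error and filled points for an edgeR adjusted p under 0.05. Nearly all points lie below 0, with Psmb8 (1.12) and Psmb9 (0.98) above it in control mice and Psmf1 near 0 in both.

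Of the 5 inducible genes, 0 were called by edgeR in either direction in control mice (background: 50.4% of all genes), against 28 of the other 38. Psme1 had an unadjusted p under 0.05 and was the 1 gene that DESeq2 called lower. In Vegfc-deficient mice 3 of 5 were called lower (Psmb10, Psme1 and Psme2), against 31 of the other 38 (background: 57.6% called in either direction). In control mice the 5 log2 fold changes ran from -0.71 to 1.12, and those of the other 38 from -1.46 to 0.02. These counts rested on M38. Without it, 3 of the 5, Psmb10, Psme1 and Psme2, were called lower in control mice (background: 3616 of 14715 genes lower).

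Psmb8, the inducible counterpart of Psmb5, lies on chromosome 17 from 34197721 to 34201454 (plus strand, GRCm38). It was at 84.2 and 88.3 CPM in naive controls (M44, M45) and at 131, 88.8 and 77.6 CPM in M34, M150 and M149. In MI controls it was at 108, 358 and 96.7 CPM (M006, M38, M40), and in the MI Vegfc-deficient group at 56.3, 85.5 and 95 CPM (M35, M900, M913). All 3 MI controls lay above the naive controls, but 2 of them by little. The log2 fold change in control mice was 1.12 (SE 0.52, edgeR adjusted p = 0.0956), and without M38 it was 0.18. Leaving out M40 instead made it a call (log2 fold change 1.43, edgeR adjusted p = 0.0367). In Vegfc-deficient mice it was -0.33 (SE 0.45, edgeR adjusted p = 0.549), with overlapping groups. An antisense gene, Gm20496, overlaps 14.7% of the exon bases of Psmb8.

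Psmb9, the counterpart of Psmb6, lies on the minus strand of the same chromosome from 34181987 to 34187764 and shares 5.79% of its exon bases with Tap1 on the other strand. It was at 43 and 42.7 CPM in naive controls and 74.5, 47 and 39.6 CPM in M34, M150 and M149. The MI controls M006, M38 and M40 were at 42.8, 172 and 38.2 CPM, and M35, M900 and M913 were at 23.2, 33.8 and 38.7 CPM. Apart from M38 and M34, the libraries lay within 23.2 to 47 CPM. Its log2 fold change in control mice was 0.98 (SE 0.59, edgeR adjusted p = 0.188) and turned to -0.15 without M38. In Vegfc-deficient mice it was -0.75 (SE 0.52, edgeR adjusted p = 0.232), which became a call when the fit left out M38 (-0.78, edgeR adjusted p = 0.0203). Every MI library of these mice lay below every naive one (at most 38.7 and at least 39.6 CPM), as for 30.7% of all genes.

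Psmb10, the counterpart of Psmb7, had another pattern in the libraries other than M38. It was at 128 and 135 CPM in naive controls and 163, 162 and 134 CPM in M34, M150 and M149. Its levels after MI were 72.7, 194 and 71.4 CPM in controls (M006, M38, M40), whereas M35, M900 and M913 were at 59, 60.4 and 81.1 CPM. Thus 5 of the 6 MI libraries lay below all naive libraries, and M38 lay above them. The log2 fold change in control mice was -0.22 (SE 0.38, edgeR adjusted p = 0.649) and without M38 it was -0.93 (edgeR adjusted p = 0.00314). In Vegfc-deficient mice it was -1.20 (SE 0.34, edgeR adjusted p = 0.013), and this call was lost without M900 (edgeR adjusted p = 0.0526).

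Psme1 and Psme2, which form PA28 together, are neighbors on chromosome 14 (55578123 to 55581529 and 55587441 to 55591113). Psme1 was at 292 and 316 CPM in naive controls, 298, 345 and 281 CPM in M34, M150 and M149, 164, 281 and 113 CPM in MI controls (M006, M38, M40), and 135, 127 and 130 CPM in M35, M900 and M913. Psme2 was at 89.5 and 94.2, at 102, 107 and 96.4, at 57.7, 125 and 49.9, and at 50.5, 53.9 and 51.7 CPM in the same order. For both, the MI Vegfc-deficient libraries were nearly equal and all below the naive ones, and M38 stood at or above the naive controls for Psme2 and just below them for Psme1. In Vegfc-deficient mice the log2 fold changes were -1.23 for Psme1 (SE 0.27, edgeR adjusted p = 0.00339) and -0.96 for Psme2 (SE 0.28, edgeR adjusted p = 0.0144). In control mice they were -0.71 (SE 0.30, edgeR adjusted p = 0.0711) and -0.24 (SE 0.31, edgeR adjusted p = 0.535), and without M38 they were -1.20 (edgeR adjusted p = 0.0016) and -0.84 (edgeR adjusted p = 0.000883). Psme2 shares 59.3% of its 50-base stretches with other transcripts, and its level is uncertain.

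**Figure D3:**
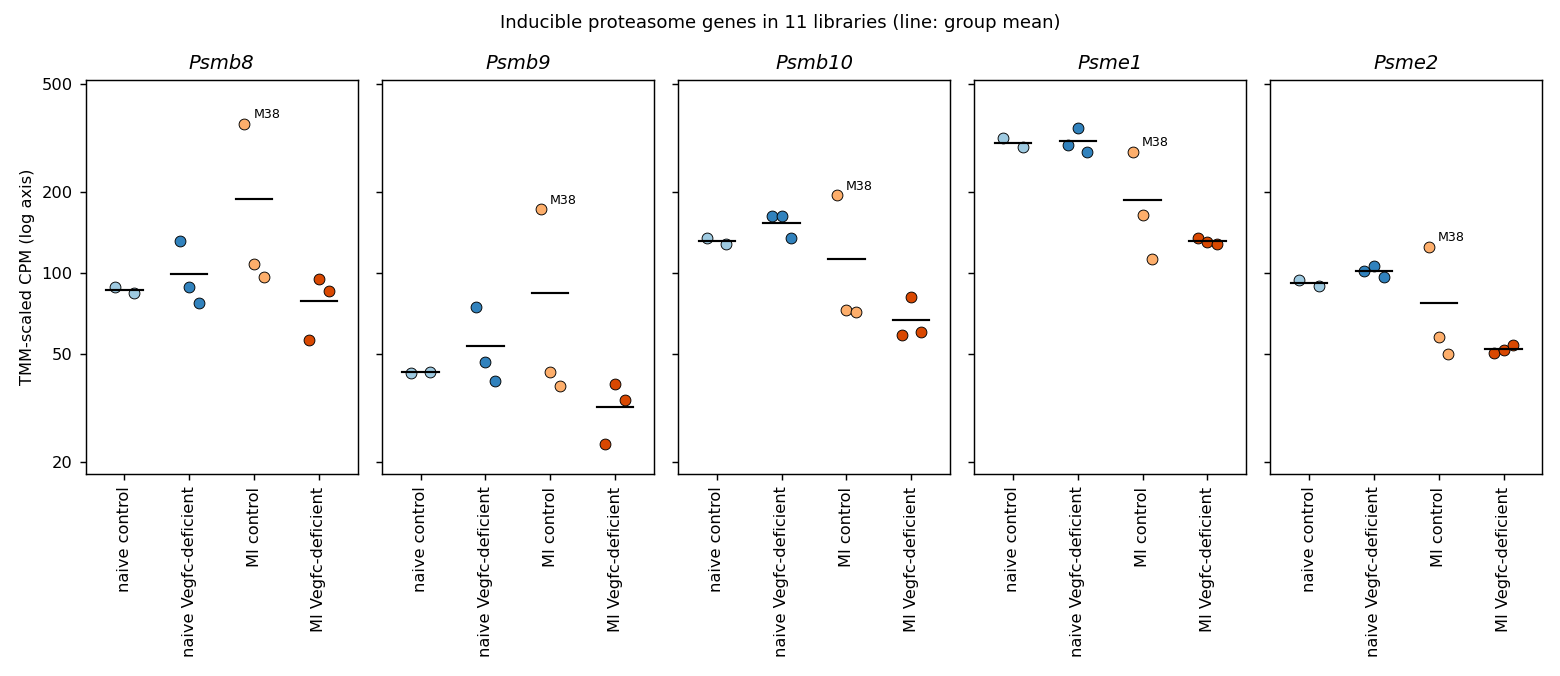
TMM-scaled CPM (log axis) of the 5 inducible genes in each library, by group, with a line at the group mean. M38 is the highest MI library for each gene (358 CPM for Psmb8). The other MI libraries overlap the naive ones for Psmb8 and lie below them for Psmb10, Psme1 and Psme2. For Psmb9 the MI Vegfc-deficient libraries (23.2 to 38.7 CPM) lie below all naive ones (39.6 to 74.5 CPM).

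The balance of inducible against constitutive catalytic subunits was measured as the log2 ratio of their counts within a library, which no scaling between libraries affects. Psmb8 to Psmb5 had linear count ratios of 2.06 and 1.87 in M44 and M45 and of 2.70, 2.52 and 1.75 in M34, M150 and M149. After MI the ratios were 5.37, 19.3 and 6.02 in M006, M38 and M40 and 4.89, 5.10 and 4.63 in M35, M900 and M913. All 6 MI libraries exceeded all 5 naive libraries. The mean log2 ratio rose by 1.61 (3.05-fold), by 2.12 in control and 1.09 in Vegfc-deficient mice. In an exact two-sided permutation test of the MI label within genotype the p was 0.005, the smallest that the 200 arrangements allow, and 0.015 after Benjamini-Hochberg adjustment over the 3 pairs. Without M38 the difference was 1.31 (exact p = 0.0167, the smallest that 120 arrangements allow, adjusted p = 0.05). Outside M38, Psmb8 itself spanned 56.3 to 108 CPM after MI and 77.6 to 131 CPM in naive hearts, whereas Psmb5 did not overlap between them (11.5 to 20.5 and 35.2 to 48.7 CPM).

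Psmb9 to Psmb6 rose by 0.89 on the log2 scale (1.86-fold; exact permutation p = 0.035, adjusted 0.035), with 3 of 6 MI libraries above all naive ones. Psmb10 to Psmb7 rose by 0.63 (1.55-fold; exact permutation p = 0.035, adjusted 0.035), with 5 of 6 above all naive ones. Without M38 the differences were 0.60 and 0.46 (adjusted exact p = 0.05 for both). Without M149 they were 0.83 (adjusted exact p = 0.09) and 0.66 (adjusted exact p = 0.06), no longer under the threshold, while Psmb8 to Psmb5 was at 1.51 (adjusted exact p = 0.03). For Psmb9 to Psmb6, M34 among the naive libraries had a log2 ratio of -2.36, above 3 of the MI libraries. Per kilobase of transcript, Psmb8, Psmb9 and Psmb10 made up 21.5% to 25.7% of the summed level of the 6 catalytic genes in naive libraries, 28.1% to 32.8% in 5 MI libraries and 54.6% in M38. These shares use the lower, uncertain level of Psmb5.

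**Figure D4:**
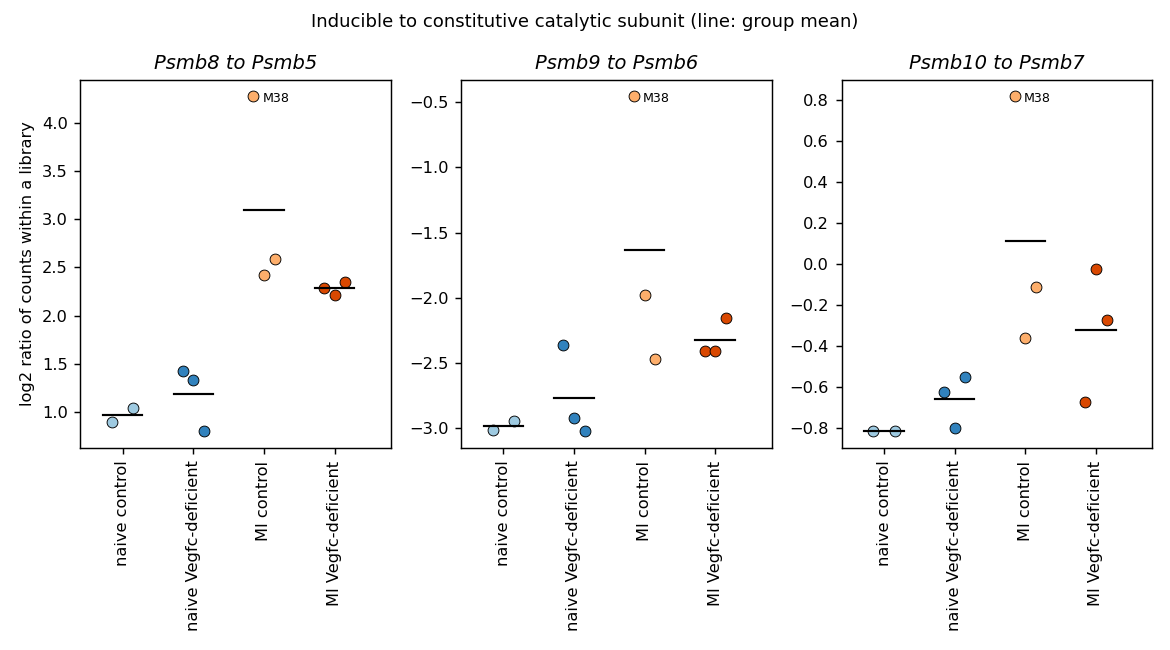
Log2 ratio of counts of each inducible catalytic subunit to its constitutive partner in each library (y axis, a separate scale per panel), by group, with a line at the group mean. For Psmb8 to Psmb5 the 6 MI libraries (2.21 to 4.27) lie above the 5 naive libraries (0.80 to 1.43), and the groups overlap in the other panels.

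M38 stood apart from the remaining 5 MI libraries in the inducible genes. It had the highest level of the 6 MI libraries for 5 of 5 inducible genes and for 17 of the other 38 (background: 19.6% of all genes). It was at least 2-fold above each of the other MI libraries for 4 of the 5 (Psmb8, Psmb9, Psmb10 and Psme2) and for 0 of the other 38 (background: 1.84%). The same 4 genes, and 0 of the other 38, were higher in M38 than in each of the remaining 10 libraries (background: 9.61%). Psmb9 stood 4.02-fold and Psmb8 3.30-fold above the next MI library. Relative to the median of the other MI libraries, M38 was 2.16 to 4.51 times as high for the inducible genes, 1.09 to 1.48 times for the 14 constitutive core genes, of which 10 were highest in M38, and 0.887 to 1.33 times for the 17 cap genes, of which 5 were. Of 19 genes tested for class I antigen processing and interferon signaling, 15 were higher in M38 than in the other MI libraries and 14 higher than in all other libraries. Ifngr1, Jak1, Calr and Pdia3 were not the highest in M38, and Ifngr2 was lower there than in every naive library. Ifng was at 5.04 CPM there and at most at 0.166 CPM elsewhere. Irf1, a transcription factor induced by interferon, was at 232 CPM in M38 and at 59.9 to 86.4 CPM elsewhere, Nlrc5, the activator of class I genes, at 64.8 against 6.61 to 22.6 CPM, and Tap1 at 201 against 15.3 to 55.9 CPM. The 6 T and NK cell markers found summed to 154 CPM in M38, 14.5 to 23.2 CPM in the other MI libraries and 3.75 to 10.5 CPM in naive libraries, with Cd3e at 0 in both naive controls. The 6 dendritic cell and MHC class II markers summed to 9704 CPM in M38 and to 1451 to 2400 CPM in the other MI libraries. The part of these cells in the levels of M38 was not tested.

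When Vegfc-deficient hearts were set against controls after MI, 0 of 43 members were called by edgeR (background: 0% of all genes), and 0 by DESeq2 (background: 0.0947% higher, 0.25% lower). At an unadjusted p under 0.05 there were 6 members, all lower (background: 7.94% of all genes in either direction). The inducible genes had the largest differences: Psmb9 -1.40 (SE 0.52, edgeR adjusted p = 0.585), Psmb8 -1.25 (SE 0.45, edgeR adjusted p = 0.584), Psmb10 -0.75 (SE 0.34), Psme2 -0.57 (SE 0.28) and Psme1 -0.51 (SE 0.27) on the log2 scale. Without M38 these 5 lay between -0.35 and -0.02. For Psmb8 alone among the 5, every Vegfc-deficient library (56.3 to 95 CPM) lay below every control library (96.7 to 358 CPM).

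None of the core and cap genes was called by edgeR. All 14 constitutive 20S genes had log2 fold changes below 0 (median -0.27, range -0.46 to -0.02), and for 6 of them every Vegfc-deficient library lay below every control library (background: 6.12% of all genes). Psmb1 was at 384, 367 and 303 CPM in MI controls (M006, M38, M40) against 239, 257 and 272 CPM in M35, M900 and M913, a log2 fold change of -0.46 (SE 0.16, edgeR adjusted p = 0.584). Psmb4 was at 242, 281 and 245 CPM against 175, 178 and 220 CPM in the same order (log2 fold change -0.42, SE 0.15, edgeR adjusted p = 0.584).

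Of the 17 subunits of the 19S cap, 10 were above and 7 below 0 (median 0.08, range -0.21 to 0.24). For 3 of them, Psmc1, Psmc2 and Psmc4, every Vegfc-deficient library lay above every control library (background: 5.99%). Psmc1 was at 126, 117 and 106 CPM in MI controls and 148, 128 and 131 CPM in M35, M900 and M913 (log2 fold change 0.22, SE 0.14, edgeR adjusted p = 0.698), and Psmd1 at 128, 126 and 142 against 137, 168 and 164 CPM (log2 fold change 0.24, SE 0.13, edgeR adjusted p = 0.657). Without M38, 13 of 14 core genes were below 0 (median -0.17) and 14 of 17 cap genes above it (median 0.16). Without M40, 8 of 17 cap genes were above 0. The median over all genes was -0.01, and no test compared the core with the cap. Cardiomyocyte markers also differed among these libraries, summing to 2412, 10221 and 13326 CPM in M40, M006 and M38 and to 5103, 10474 and 22856 CPM in M900, M913 and M35, and their part was not tested.

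**Figure D5:**
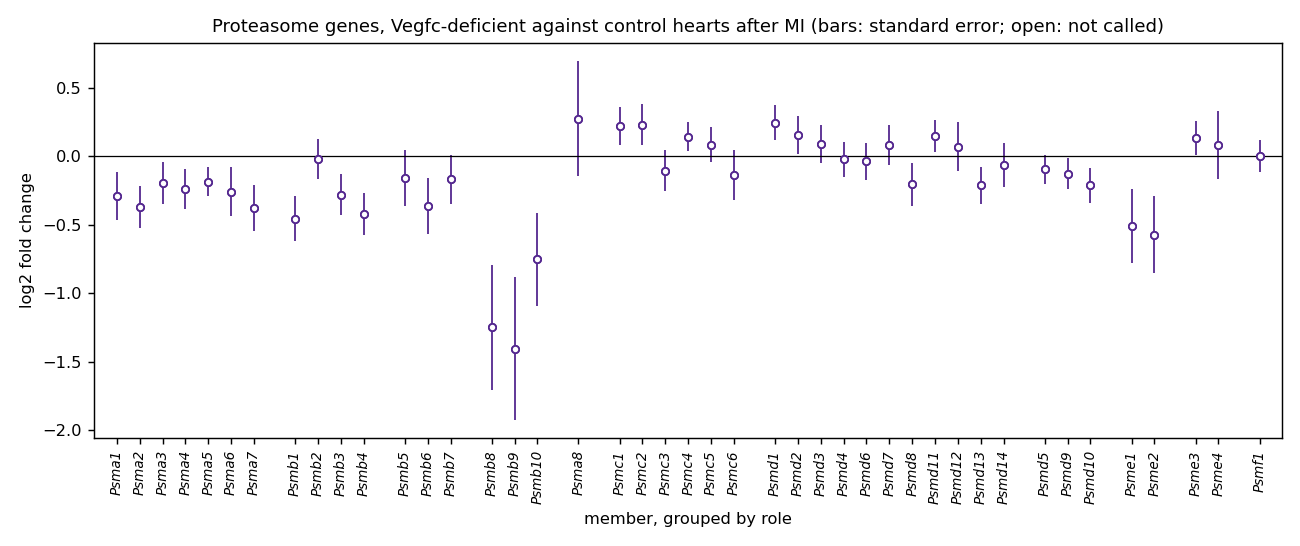
Log2 fold change of each member tested (x axis, grouped by role) in Vegfc-deficient against control hearts after MI, with bars of 1 standard error; open points have an edgeR adjusted p of 0.05 or more. Psmb8 (-1.25) and Psmb9 (-1.40) lie lowest, the core genes below 0 and the cap genes on both sides of it.

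In naive hearts the genotypes were closer. Of the 43 members, 0 were called by edgeR (background: 0% of all genes) or DESeq2 (background: 0.0812% higher, 0.0135% lower), and 1 had an unadjusted p under 0.05 (background: 3.38%). That gene was Psma8, at 2.45 and 2.05 CPM in M45 and M44 and at 3.01, 5.57 and 8.82 CPM in M34, M150 and M149 (log2 fold change 1.36, SE 0.51, edgeR adjusted p = 1). The median log2 fold change of the 14 core genes was 0.11, with 12 above 0, and that of the 17 cap genes was -0.06, with 12 below 0. Every Vegfc-deficient library lay below both controls for 5 members (Psmc4, Psmc5, Psmd1, Psmd2 and Psmd5) and above both for 3 (Psma8, Psmb3 and Psme2; background: 10.1% below and 12.3% above, over all genes). Without M149, 0 members were called, the median log2 fold change of the members moved from 0.07 to 0.13, 9 of 17 cap genes were above 0, Psma8 was at 0.92 (edgeR adjusted p = 0.803), and 17 of all genes were called. The MI effects of the genotypes were compared by the interaction of MI and genotype, which shares the MI libraries with the comparison above. It called 0 members (background: 0%), with 4 at an unadjusted p under 0.05 (background: 8.3%) and 0 by DESeq2 (background: 0.162% higher, 0.21% lower). The lowest interactions were those of Psmb9 (-1.73, SE 0.78, edgeR adjusted p = 0.604) and Psmb8 (-1.45, SE 0.68, edgeR adjusted p = 0.606), which without M38 were -0.63 and -0.54. Among the other members Psmb1 had -0.63 (SE 0.25, edgeR adjusted p = 0.558), Psma2 -0.58 (SE 0.23, edgeR adjusted p = 0.558) and Psmd1 0.47 (SE 0.19, edgeR adjusted p = 0.565).

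Partner genes outside the naming rule were also lower after MI. Of 11 genes for associated proteins and assembly chaperones that were found, 8 were lower in control and 11 in Vegfc-deficient mice (background: 24.1% and 27.7%), the latter 9 without M149. Pomp, which matures the core, was at 316 and 366 CPM in naive and 162 to 249 CPM in MI controls (log2 fold change -0.76, edgeR adjusted p = 0.00784). With 1 naive control remaining, its log2 fold change was -0.65 (without M45) or -0.86 (without M44). Ecpas, which tethers core and cap, fell by 1.24 (edgeR adjusted p = 0.000839), and Sem1, the smallest cap subunit, by 0.98 on the log2 scale (edgeR adjusted p = 0.0022).

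Of 13 genes that regulate proteasome genes or deliver substrate, 2 were higher and 4 lower in control mice, and 4 were higher and 4 lower in Vegfc-deficient mice. These shares lie near those of all genes, of which 26.3% were higher and 24.1% lower in control and 30% and 27.7% in Vegfc-deficient mice. Nfe2l1, the transcription factor that raises proteasome genes when the proteasome is impaired, was at 320 and 323 CPM in naive and 167 to 195 CPM in MI controls (log2 fold change -0.86, edgeR adjusted p = 0.00156). Ddi2, the protease that activates the Nfe2l1 protein, rose by 0.72 (edgeR adjusted p = 0.014) in control and 0.96 (edgeR adjusted p = 0.00126) in Vegfc-deficient mice. With 1 naive control remaining, the rise of Ddi2 in control mice was 0.54 (without M45) or 0.93 (without M44). Of 7 muscle ubiquitin ligases, 5 were lower in control mice and 6 lower and 1 higher in Vegfc-deficient mice (0 higher without M149), led by Trim63 (MuRF1), at 196 and 199 CPM in naive and 8.92 to 38.8 CPM in MI controls.

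Of 19 genes tested for class I antigen processing and interferon signaling, 6 were higher and 1 lower in control mice. In Vegfc-deficient mice 5 were higher and 1 lower. The shares higher lay near the background of 26.3% and 30% of all genes, while 24.1% and 27.7% of all genes were lower. Without M38 the higher counts were 4 and 8 (background: 3425 and 4346 of 14715 genes higher). Tap1 and Nlrc5 had log2 fold changes of 2.41 and 2.15 in control mice (edgeR adjusted p = 0.0111 and 0.0232), where M38 was the highest library, and of 0.82 and 0.51 in Vegfc-deficient mice (edgeR adjusted p = 0.207 and 0.453). Without M38 they were 1.19 and 0.92 in control mice (edgeR adjusted p = 0.00344 and 0.0414) and 0.79 and 0.48 in Vegfc-deficient mice (edgeR adjusted p = 0.00633 and 0.137). Leaving out M45 or M44 leaves 1 naive control. In control mice the log2 fold change of Tap1 was then 2.65 or 2.21, and that of Nlrc5 was 2.09 or 2.22. The gene that fell in both genotypes was Ifngr2, a chain of the interferon-γ receptor (log2 fold change -1.36 and -1.49). None of the tested genes on these 4 lists was called by edgeR between genotypes or in the interaction.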

How the data were processed

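Stranded mRNA libraries from left ventricle were sequenced, 1 per mouse. Per the labels, the processing named cutadapt 1.13, STAR, HTSeq 0.6.1p1, DESeq2 1.14.1 and the mouse build mm10; the annotation release and the strand setting of the counting were not given in the sources used here. The authors deposited raw read counts per Ensembl gene for each library, without normalization. The treatment of reads that map to several places was also not given, so levels of members that share sequence with pseudogenes are uncertain.

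Gene symbols, types and coordinates came from GENCODE M21 (GRCm38), which matched 24942 of 25006 identifiers. From the deposited counts, edgeR 4.0.16 (R 4.3.3) filtered low genes (filterByExpr), applied TMM scaling and fitted 1 quasi-likelihood model of 4 group means to all 11 libraries, with Benjamini-Hochberg adjustment over 14779 genes. Standard errors were the log2 fold change divided by the square root of F. Within-library ratios were tested by exact permutation within genotype. The steps were tested on simulated data. Groups came from the sample titles. Nothing in the labels says more on how mice were paired or batched. The edgeR p-values set differences between group means against a spread between mice that was estimated across the 4 groups. The exact p-values rank the observed ratio difference among rearrangements of the MI label. Replicates of a group differed by 8.65 to 172 times counting noise, so no library was a repeat of another. The CPM values given for 3 counts reflect library size and scaling only.

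The members and gene lists were chosen with earlier results of these data known. Named individually were the inducible genes, the catalytic partners, Psme3, Psme4, Psmf1, Psma8 and Psmb11. In each comparison the 2 members of largest change and the 2 of lowest p in each direction were named as well. Psma1, Psma3, Psma5, Psma6, Psma7, Psmc2, Psmc3, Psmd3, Psmd8 to Psmd11, Psmd13 and Psmd14 were named after their values were seen. They were extremes, members not called, members whose groups did not overlap, or members compared by level per kilobase. The lists were proteasome partners (Paaf1 was not matched), regulators and substrate delivery, class I and interferon genes, muscle ubiquitin ligases and cell type markers; the values of some listed genes are not reported here. Alternatives were RLE and upper-quartile scaling, TMM without the 50 highest genes, no filter or a mean CPM of at least 1, DESeq2 1.42.0, the compared groups alone, a threshold of 0.01, 1 added to each count in the ratios, and each library left out in turn. Leaving out a library for the signs of the core and cap genes and for the other gene lists was chosen after seeing the data.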

Additional observations from a re-analysis of the deposited data

How the results depend on the processing

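The counts of members called lower and higher stayed within 1.5 times their main value, and no count of 0 changed, under RLE and upper-quartile scaling, TMM without the 50 highest genes, both filter settings, DESeq2, the compared groups alone and a threshold of 0.01. Members lower after MI numbered 19 to 32 in control mice and 28 to 35 in Vegfc-deficient mice under these settings. Upper-quartile scaling moved the median of all genes after MI from 0.13 to 0.23 in control mice, and the members' median relative to it was -0.75 under both scalings. With 1 library left out, members lower after MI in control mice numbered 16 to 34 and members higher 0 to 1, the 1 being Psmb8 without M40. With any 1 library left out, the log2 ratio of Psmb8 to Psmb5 differed between MI and naive hearts by 1.31 to 1.77. The difference ranged from 0.60 to 1.10 for Psmb9 to Psmb6 and from 0.46 to 0.75 for Psmb10 to Psmb7. All differences stayed positive, while their adjusted exact p rose to as much as 0.075, 0.237 and 0.206. Fewer arrangements remain in these tests. Without M38, M006 or M40 the exact p for Psmb8 to Psmb5 was 0.0167, the smallest that 120 arrangements allow, and its adjusted p was 0.05.

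Near-zero log2 fold changes after MI in control mice changed sign: Psma8 and Psmf1 were at -0.038 under both RLE scaling and DESeq2. With 1 library left out, Psma8 ranged from -0.31 to 0.28, Psmf1 from -0.079 to 0.067, Psmb9 from -0.15 to 1.33 and Psmb10 from -0.93 to 0.025. In naive hearts the genotype difference of Psmb8 ranged from -0.053 to 0.35 and that of Psme1 from -0.070 to 0.082. No paired analysis was possible because the labels carry mouse numbers, none of which occurs in more than 1 group. The 2 naive controls limit every comparison in control mice, and the depth (3 counts correspond to at most 0.363 CPM) limits only Psmb11 and Psma8.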

Other observations

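Divided by the length of the main transcript, the members differed widely in level although most subunits are present in equal copies in the particle. In naive controls the group mean per kilobase was highest for Psma7 (431 CPM per kb), Psmb6 (423) and Psma6 (374) and lowest, among the 14 constitutive core genes, for Psma3, then Psma5 (33.5 CPM per kb) and Psmb5 (49.0). Of the transcripts of these 3, 22.0%, 54.5% and 57.1% of the 50-base stretches also occur in transcripts of other genes, against 2.67% for Psmb6 and 0% for Psma6, Psma7 and Psma1 (234 CPM per kb). Psmb3, at 88.8 CPM per kb and 55.8% shared, was the next lowest core gene. Among the 17 cap genes the mean ranged from 23.9 CPM per kb for Psmd11 to 313 for Psmc3. The part of shared sequence in these levels was not tested.

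Of the inducible genes, Psme1 had the highest mean per kilobase in naive controls (273 CPM per kb), above Psmb10 (100.1), Psme2 (95.5), Psmb8 (53.0) and Psmb9 (31.7). In MI Vegfc-deficient hearts the order was Psme1 (117.8 CPM per kb), Psme2 (54.1), Psmb10 (51.0), Psmb8 (48.5) and Psmb9 (23.6), so that Psmb8 lay near Psmb10. In naive controls the mean of Psmb8 was close to that of Psmb5 (49.0), its constitutive partner, while Psmb9 lay far below Psmb6 and Psmb10 below Psmb7 (199 CPM per kb). M34 had the highest level of Psmb8 and Psmb9 of the 5 naive libraries (131 and 74.5 CPM), and there Nlrc5 was at 14.6 CPM, also the highest of the naive libraries.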
